A study of Homo sapiens with 17 samples.

Results

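The genes described here encode nuclear subunits of the last steps of oxidative phosphorylation: 4 genes of complex II (succinate dehydrogenase), 9 of complex III (the cytochrome bc1 complex), 10 of complex IV (cytochrome c oxidase) and 12 of complex V (ATP synthase). They were chosen by gene symbol, and all 35 symbols were present among the 41040 named genes of the count tables. All 35 passed the filter on low counts that left 16891 genes for testing. Their messenger RNA was followed by bulk RNA-seq in IMR-90 cells, a diploid fibroblast line from human fetal lung, so that all groups share a single cell line.

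Cells at week 1 (day 7, n = 6 libraries) and week 4 (day 28, n = 6) had been exposed to 20 µM etoposide for 48 h and then grown without it, and week 0 cells (day 0, n = 5) were untreated. Etoposide poisons topoisomerase II and leaves double-strand breaks in DNA, and the series is titled as a study of senescent cell biomarkers. There were no untreated cells at later weeks, so treatment and time in culture cannot be told apart. The labels do not say whether replicates were separate cultures, so p-values stand for the spread from library to library, which could be technical.

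In the mitochondrial inner membrane, complex II passes electrons from succinate to ubiquinone, complex III moves them on to cytochrome c while pumping protons, and complex IV hands them to oxygen. Complex V lets the protons flow back through a ring of c-subunits, and the turning of that ring drives ATP production in its F1 head. Complex II also works in the tricarboxylic acid cycle and is built from nuclear genes only, whereas complexes III, IV and V each need subunits made from mitochondrial DNA as well. Cells that have become senescent after DNA damage stay metabolically active, and altered mitochondria are a known part of that state.

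The libraries held 77.2 to 102.8 M counts in named genes. The cyclin-dependent kinase inhibitor gene CDKN1A averaged 2137 ± 53.7 CPM at week 1 and 1276 ± 43.3 CPM at week 4, against 284 ± 14.2 CPM at week 0 (SD; CPM are counts relative to library size, with sizes scaled by the TMM method). The proliferation marker MKI67 averaged 42.7 ± 4.61 CPM at week 1 and 66.5 ± 10.0 CPM at week 4, against 410.3 ± 58.4 CPM at week 0. Of the fibroblast markers, COL1A1 lay between 15136 and 29270 CPM in all libraries, while the epithelial EPCAM and CDH1, the endothelial PECAM1 and the leukocyte PTPRC stayed at or below 1.06 CPM. Marker sums moved with the weeks: the sum of 10 fibroblast markers, mostly collagen and fibronectin genes, spanned 75775 to 83983 CPM at week 1 and 100506 to 106549 CPM at week 4, against 39707 to 49031 CPM at week 0. That of 8 epithelial markers, nearly all KRT8, KRT18 and KRT19, spanned 243 to 282 CPM at week 1 and 201 to 227 CPM at week 4, against 58.7 to 66.3 CPM at week 0. Endothelial, leukocyte and muscle marker sums each stayed at or below 5.75 CPM. The part of these shifts in the results below was not tested.

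At week 0, replicates 1 and 4 stood apart for these genes. They were the 2 highest of the 5 week 0 libraries for 32 of the 35 genes, or 91.4%, where the same held for 22.3% of all tested genes. SDHA, ATP5F1B and ATP5F1D were the exceptions. The mean of replicates 1 and 4 was a median of 1.53-fold that of replicates 3, 5 and 6 over the 35 genes, 1.63-fold over the complex IV genes and 0.963-fold over all tested genes. COX7B, a small subunit of cytochrome c oxidase, showed the widest gap, with 158 and 115 CPM in replicates 1 and 4 and 68.9, 50.7 and 40.6 CPM in replicates 3, 5 and 6. The coefficient of variation within week 0 had a median of 24.2% over the 35 genes, and it was 4.49% at week 1 and 4.88% at week 4. Over tested genes averaging at least 10 CPM the medians were 9.33%, 4.74% and 5.15%. Without replicates 1 and 4 the week 0 median was still 8.54% over the 35 genes, with COX7B the highest at 26.9%. It was 4.03% over the tested genes averaging at least 10 CPM.

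Other transcripts moved in the same libraries. Genes for ribosomal proteins (79 genes) took 5.49% to 6.25% of the counts in week 0 replicates 1 and 4, and 3.40% to 4.10% in replicates 3, 5 and 6. The fold of replicates 1 and 4 over the other week 0 libraries had a median of 1.24 for tested genes of up to 1 kb and 0.887 for those over 8 kb. The 17 subunit genes between 2 and 4 kb had a median of 1.53-fold, where all tested genes of that length had 1.02-fold. Comparisons with week 0 therefore use all 17 libraries unless stated otherwise, and most are followed by the values without these 2.

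**Figure D1:**
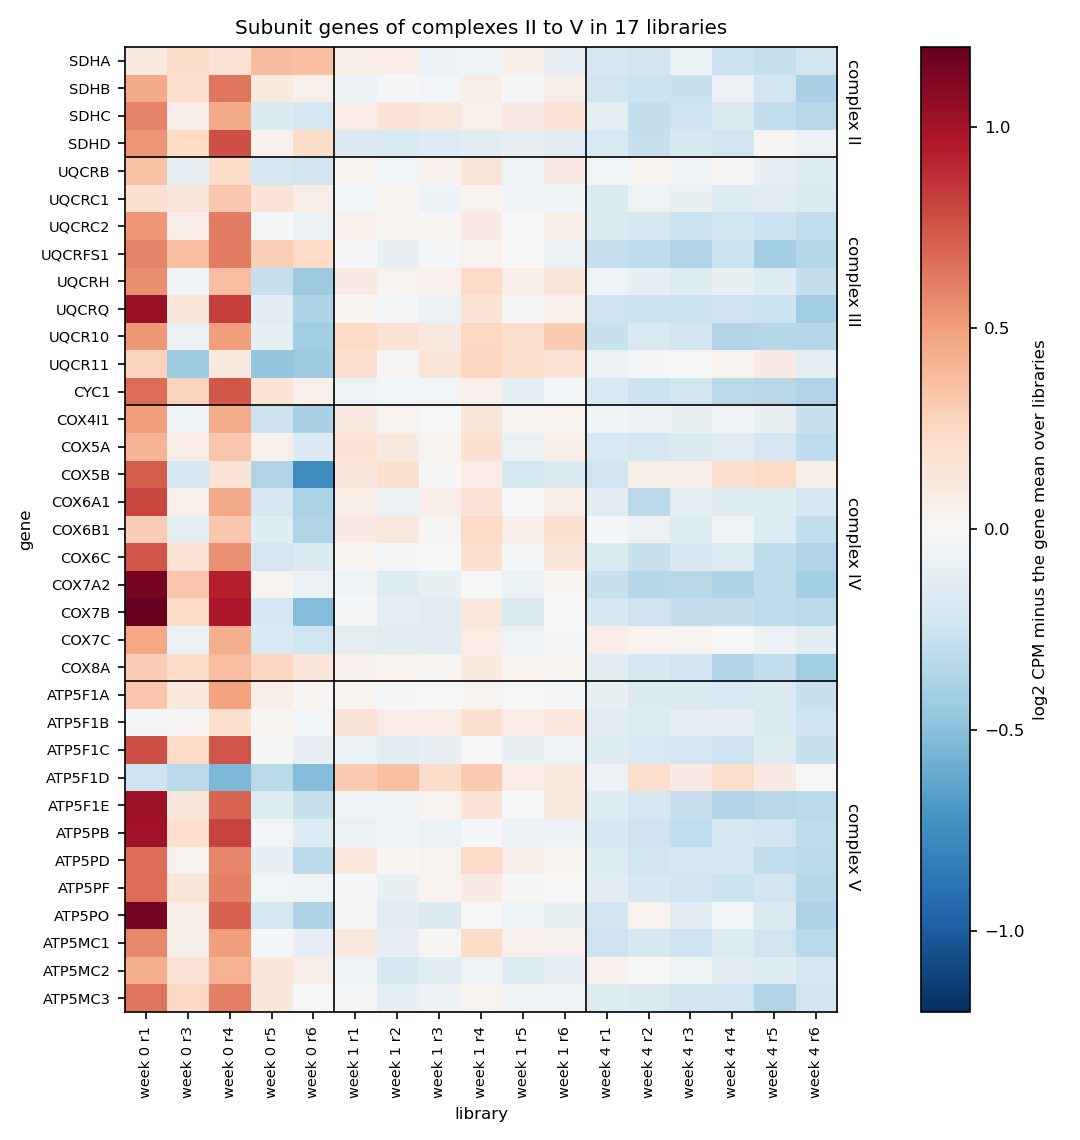
Level of each of the 35 subunit genes (down the page, by complex) in each of the 17 libraries (across, by week and replicate, r), as log2 CPM minus the mean of that gene over the libraries. Week 0 replicates 1 and 4 are the reddest of the 5 week 0 columns for 32 of the 35 genes, week 4 columns are mostly blue, and ATP5F1D runs the other way, low at week 0 and high at weeks 1 and 4.

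Summed over the 35 genes, the level was 2841 to 3135 CPM at week 4 and 3416 to 3682 CPM at week 1, against 4773 and 4876 CPM in week 0 replicates 1 and 4 and 3147 to 3631 CPM in replicates 3, 5 and 6. Week 4 thus lay below every other library, while week 1 overlapped the lower week 0 libraries. In bulk samples, fewer cells of a type and less RNA per cell cannot be told apart, and an RNA level is not a measure of respiration.

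At week 4, most of the respiratory genes were lower than in untreated cells. With all libraries, 27 of the 35 were called lower and 1 higher by edgeR (a Benjamini-Hochberg adjusted p under 0.05 over all tested genes), where 33.7% of all tested genes were called lower and 33.9% higher. Their median log2 fold change was -0.46, and that of all tested genes was 0.00. When week 0 replicates 1 and 4 were left out, 22 were called lower and 5 higher, against 31.8% and 33.1% of all genes, and the median was -0.19. The 22 genes lower without those libraries were all among the 27. For 17 genes every week 4 library lay below every week 0 library, and for 1 every week 4 library lay above (23.6% and 25.4% of all tested genes).

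At week 1 the picture depended on which untreated libraries were counted. With all libraries 16 genes were called lower and 2 higher, against 34.0% and 32.9% of all tested genes, with a median log2 fold change of -0.21 where all genes had -0.02. Leaving out week 0 replicates 1 and 4 gave 11 lower and 12 higher, against 32.1% and 32.7% of all genes, and the median was 0.08. The 11 genes called lower were so in both fits, and no gene was called in opposite directions by the 2 fits. Those 11 were SDHA, SDHB and SDHD of complex II, UQCRC1, UQCRFS1 and CYC1 of complex III, COX7A2 and COX8A of complex IV, and ATP5F1C, ATP5MC2 and ATP5MC3 of complex V.

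**Figure D2:**
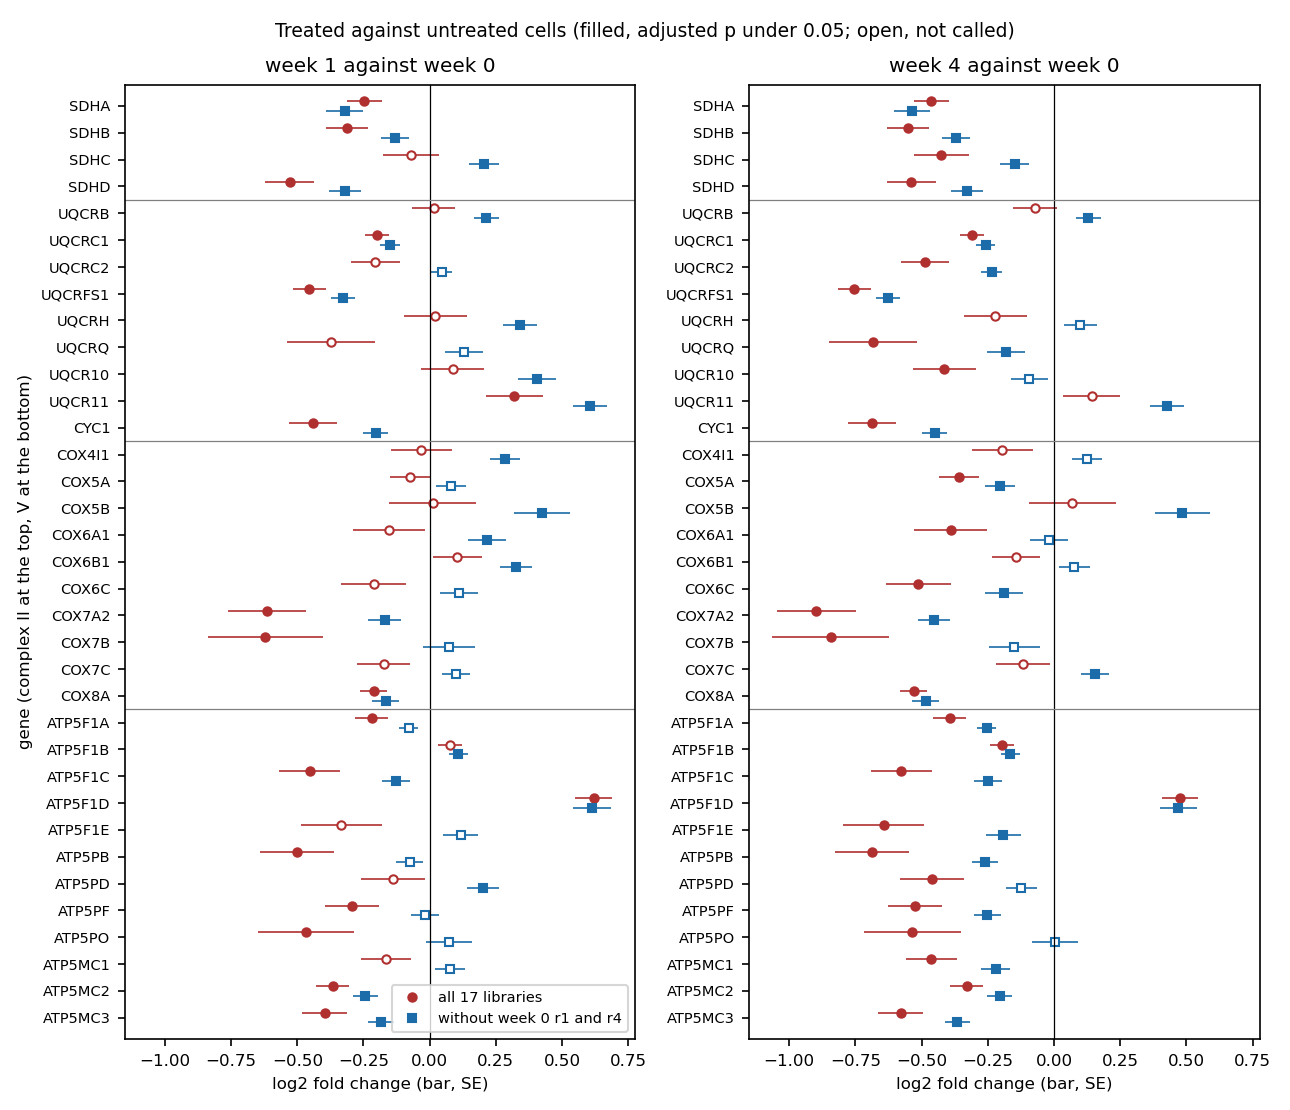
Log2 fold change of each subunit gene (down the page) at week 1 against week 0 (left panel) and at week 4 against week 0 (right panel), with all 17 libraries (red circles) and without week 0 replicates 1 and 4 (blue squares). Bars are standard errors and filled symbols passed an adjusted p under 0.05. Most genes shift to the right without those libraries, with week 4 medians of -0.46 and -0.19, and ATP5F1D lies far to the right in both.

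The promoters of 5 of these genes are shown as examples. UQCRFS1, SDHD, COX8A and SDHA were lower at week 4 in both fits, and UQCR11 was not. Whether their promoters bear on these changes was not tested. Each is the 180 bases before the annotated start, from RefSeq on build GRCh38.p14, 5′ to 3′ on the strand of the gene. Capitals mark 2 motifs searched on both strands: GCGCNNGCGC, of the type bound by nuclear respiratory factor 1 (NRF1), and CCGGAAG (capitals also mark its reverse complement), of the type bound by ETS factors such as GABPA. The matches do not overlap each other.
UQCRFS1 (chr19:29213152-29213331, minus strand): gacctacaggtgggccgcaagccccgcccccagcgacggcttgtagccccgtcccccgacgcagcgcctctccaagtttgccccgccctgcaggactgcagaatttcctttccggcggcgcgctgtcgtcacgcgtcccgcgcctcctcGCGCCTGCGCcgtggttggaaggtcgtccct
SDHD (chr11:112086693-112086872, plus strand): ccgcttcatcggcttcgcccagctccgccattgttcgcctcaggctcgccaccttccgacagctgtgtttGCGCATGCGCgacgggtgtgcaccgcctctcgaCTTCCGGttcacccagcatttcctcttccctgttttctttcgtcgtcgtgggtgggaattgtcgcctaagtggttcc
COX8A (chr11:63974440-63974619, plus strand): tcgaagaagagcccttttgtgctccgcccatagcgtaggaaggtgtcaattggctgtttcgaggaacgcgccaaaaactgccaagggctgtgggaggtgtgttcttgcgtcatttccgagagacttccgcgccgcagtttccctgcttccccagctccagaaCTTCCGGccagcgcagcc
SDHA (chr5:218140-218319, plus strand): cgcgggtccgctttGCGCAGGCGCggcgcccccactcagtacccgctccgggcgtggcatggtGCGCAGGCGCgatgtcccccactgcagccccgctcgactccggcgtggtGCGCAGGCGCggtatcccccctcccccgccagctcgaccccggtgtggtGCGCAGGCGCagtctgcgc
UQCR11 (chr19:1605463-1605642, minus strand): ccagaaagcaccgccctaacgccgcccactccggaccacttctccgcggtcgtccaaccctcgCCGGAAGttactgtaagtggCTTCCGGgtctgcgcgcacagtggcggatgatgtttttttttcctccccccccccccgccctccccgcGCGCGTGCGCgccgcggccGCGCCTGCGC

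Complex II was lower at week 4 as a whole. All 4 genes were called lower in both fits, where 33.7% and 31.8% of all tested genes were. The median log2 fold change was -0.50 with all libraries and -0.35 without week 0 replicates 1 and 4. SDHB, the iron-sulfur subunit, had 40.4 CPM at the lowest, 44.4 at the median and 50.5 at the highest at week 4, against 72.5, 60.6, 82.3, 57.3 and 55.3 CPM in week 0 replicates 1, 3, 4, 5 and 6. The highest week 4 library lay below the lowest at week 0. SDHB thus had a log2 fold change of -0.55 ± 0.08 (SE, adjusted p = 2.8e-06), the largest fall of the 4 with all libraries. Leaving out week 0 replicates 1 and 4, it was -0.37 ± 0.05 (adjusted p = 1.6e-06), and SDHA had the largest, at -0.54 ± 0.07.

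SDHC, a membrane anchor of complex II, was lower at week 4 than at week 1 (log2 fold change -0.36 ± 0.10, adjusted p = 0.0067). It had 41.5, 43.4 and 48.1 CPM at the lowest, median and highest at week 4, against 78.7, 55.0, 71.2, 46.4 and 45.1 CPM in week 0 replicates 1, 3, 4, 5 and 6, so that the groups overlapped at their edges. Its log2 fold change at week 4 was -0.43 ± 0.10 (adjusted p = 0.0011), and -0.15 ± 0.06 without week 0 replicates 1 and 4 (adjusted p = 0.022). At week 1 the SDHC libraries lay between 54.4 and 58.3 CPM, with a log2 fold change from week 0 of -0.07 (adjusted p = 0.57) that became 0.21 without those libraries (adjusted p = 0.0025).

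SDHD, the other membrane anchor, was lower by week 1, at 20.0 to 21.2 CPM, against 32.8, 26.8, 38.9, 23.5 and 26.4 CPM in week 0 replicates 1, 3, 4, 5 and 6. All week 1 libraries lay below all those of week 0 (log2 fold change -0.53 ± 0.09, adjusted p = 2.6e-05; -0.32 ± 0.06 without week 0 replicates 1 and 4). At week 4 the SDHD level spanned 18.8 to 22.9 CPM, and it did not pass the test against week 1 (log2 fold change -0.01, adjusted p = 0.95). In the GENCODE v29 annotation the exons of SDHD overlap those of TIMM8B on the opposite strand, and whether the counting used strand is not given in the sources used here.

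SDHA encodes the flavoprotein that oxidises succinate. Unlike most of the others, it was lowest at week 0 in replicates 1 and 4, with 10.4, 11.2, 10.8, 12.5 and 12.4 CPM in week 0 replicates 1, 3, 4, 5 and 6. The week 4 libraries spanned 7.96 to 9.09 CPM, below all of week 0 (log2 fold change -0.46 ± 0.07, adjusted p = 2.0e-06; -0.54 ± 0.07 without week 0 replicates 1 and 4, adjusted p = 3.7e-07). SDHA is uncertain, because its listed copies, mainly SDHAP4, held 164% of its own counts, and reads shared between near-identical copies may have been split or lost. The copies together averaged 14.5 ± 1.73 CPM at week 4, against 18.9 ± 2.10 CPM at week 0.

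In complex III 5 genes were lower at week 4 in both fits. Of the 9 genes, 6 were called lower at week 4 with all libraries (median log2 fold change -0.41) and 0 higher by edgeR, DESeq2 or limma-voom (0 higher at an unadjusted p under 0.05 by each), and 5 lower and 2 higher without week 0 replicates 1 and 4 (median -0.18). The 5 were UQCRC1, UQCRC2, UQCRFS1, UQCRQ and CYC1, and the 2 were UQCRB and UQCR11. Of all tested genes, 33.7% were called lower and 33.9% higher with all libraries, and 31.8% and 33.1% in the other fit.

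UQCRFS1 carries the Rieske iron-sulfur cluster, through which electrons leave ubiquinol. Week 4 libraries had 31.5 CPM at the lowest, 33.6 at the median and 35.2 at the highest, week 1 libraries had 39.6, 41.5 and 43.2 CPM, and week 0 replicates 1, 3, 4, 5 and 6 had 63.6, 54.2, 64.2, 51.2 and 49.6 CPM. The 3 groups did not overlap. The log2 fold change of UQCRFS1 was -0.75 ± 0.06 at week 4 against week 0 (adjusted p = 3.4e-10), -0.45 ± 0.06 at week 1 against week 0 (adjusted p = 9.4e-07) and -0.30 ± 0.06 at week 4 against week 1 (adjusted p = 3.0e-04). Without week 0 replicates 1 and 4 the week 4 value was -0.63 ± 0.04 (adjusted p = 1.3e-11). In the promoter shown above, its GCGCNNGCGC match begins 31 bases before the start.

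CYC1, cytochrome c1, which passes electrons to cytochrome c, had 53.1, 55.6 and 59.9 CPM at the lowest, median and highest at week 4, against 108, 81.8, 114, 76.1 and 71.0 CPM in week 0 replicates 1, 3, 4, 5 and 6. Every week 4 library was below every week 0 library (log2 fold change -0.69 ± 0.09, adjusted p = 6.7e-07; -0.45 ± 0.05 without week 0 replicates 1 and 4). The core proteins had log2 fold changes at week 4 of -0.31 ± 0.04 for UQCRC1 and -0.49 ± 0.09 for UQCRC2 (adjusted p = 2.2e-06 and 6.9e-05), and -0.26 ± 0.04 and -0.24 ± 0.04 without those 2 libraries. UQCRQ, a small accessory subunit, had a log2 fold change of -0.69 ± 0.17 at week 4 (adjusted p = 9.5e-04), which shrank to -0.18 ± 0.07 without week 0 replicates 1 and 4 (adjusted p = 0.032).

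UQCR11, a small accessory subunit of complex III, had the highest fold change of the complex. It had 13.9, 14.9 and 16.1 CPM at the lowest, median and highest at week 4 and 15.2, 17.1 and 18.1 CPM at week 1, against 18.3, 11.2, 16.2, 10.9 and 11.2 CPM in week 0 replicates 1, 3, 4, 5 and 6. Week 0 replicates 3, 5 and 6 lay below all treated libraries, and replicates 1 and 4 lay among or above them. UQCR11 had a log2 fold change of 0.32 ± 0.11 at week 1 (adjusted p = 0.013) and 0.14 ± 0.11 at week 4 (adjusted p = 0.26). It was, without week 0 replicates 1 and 4, 0.60 ± 0.06 at week 1 (adjusted p = 1.5e-08) and 0.43 ± 0.06 at week 4 (adjusted p = 3.1e-06). Its promoter, printed above, holds 2 matches to each motif, and whether they bear on its level was not tested.

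The remaining genes of complex III are accessory subunits. UQCRB spanned 81.7 to 92.9 CPM at week 4, against 77.8 to 116 CPM at week 0 (log2 fold change -0.07, adjusted p = 0.45; 0.13 without week 0 replicates 1 and 4, adjusted p = 0.022). UQCRH, the hinge protein, passed the test at week 4 in neither fit (log2 fold changes -0.22 and 0.10), and its near-identical copy UQCRHL held 15.3% of its counts. UQCR10 was called lower at week 4 with all libraries (log2 fold change -0.41 ± 0.12, adjusted p = 0.0042) and not without week 0 replicates 1 and 4 (-0.09, adjusted p = 0.25).

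In complex IV 4 genes were lower at week 4 in both fits. Of the 10 genes, 6 were called lower at week 4 with all libraries (median log2 fold change -0.37). As in complex III, the 3 tools called 0 higher, also at an unadjusted p under 0.05. In the fit without week 0 replicates 1 and 4, 4 were lower and 2 higher (median -0.08). The 4 were COX5A, COX6C, COX7A2 and COX8A, and the 2 were COX5B and COX7C. Over all tested genes 33.7% were called lower and 33.9% higher in the first fit, and 31.8% and 33.1% in the second. The 4 of 10 lower in the second fit were thus near the share of all genes.

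COX7A2, the isoform of subunit 7A found in most tissues, had the lowest week 4 fold change of all 35 genes when all libraries were used. It had 60.0, 63.5 and 66.9 CPM at the lowest, median and highest at week 4, against 178, 101, 153, 82.4 and 76.3 CPM in week 0 replicates 1, 3, 4, 5 and 6. The groups did not overlap, although the untreated libraries differed widely among themselves. This was a log2 fold change of -0.90 ± 0.15 (adjusted p = 1.5e-05), and -0.45 ± 0.06 without week 0 replicates 1 and 4 (adjusted p = 6.0e-07).

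COX8A, a small membrane subunit, fell by a like amount in both fits. Its week 4 libraries had 34.7, 38.5 and 42.1 CPM at the lowest, median and highest, its week 1 libraries 47.0, 47.5 and 50.2 CPM, and week 0 replicates 1, 3, 4, 5 and 6 had 56.9, 54.3, 59.8, 55.4 and 51.1 CPM. The 3 groups did not overlap, and week 0 replicates 1 and 4 were close to the rest. The log2 fold change was -0.53 ± 0.05 at week 4 against week 0 (adjusted p = 5.9e-09), and -0.48 ± 0.05 without week 0 replicates 1 and 4 (adjusted p = 1.2e-08). Over the 30 other settings tried it ran from -0.58 to -0.27. At week 1 it was -0.21 ± 0.05 (adjusted p = 0.0010), a call that was lost when libraries were corrected for gene length (log2 fold change 0.00333), COX8A being the shortest of the 35 genes at 494 bases.

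COX5B, the zinc-binding subunit, had the highest fold change of complex IV at week 4. It had 41.9, 51.8 and 57.7 CPM at the lowest, median and highest at week 4, against 81.4, 43.3, 54.8, 38.3 and 29.4 CPM in week 0 replicates 1, 3, 4, 5 and 6. The week 4 libraries fell inside the range of week 0. The log2 fold change was 0.07 ± 0.17 with all libraries (adjusted p = 0.73) and 0.48 ± 0.10 without week 0 replicates 1 and 4 (adjusted p = 3.0e-04).

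COX7B shows how far the untreated libraries set the size of a change. It spanned 46.7 to 50.9 CPM at week 4 and lay inside the week 0 range of 40.6 to 158 CPM, with a log2 fold change of -0.84 ± 0.22 (adjusted p = 0.0018) that became -0.15 ± 0.10 without week 0 replicates 1 and 4 (adjusted p = 0.18). COX6A1 lost its call in the same way (log2 fold changes -0.39 and -0.02), and it has a copy, COX6A1P2, with 26.5% of its counts. COX5A and COX6C were called lower at week 4 in both fits, with log2 fold changes of -0.36 ± 0.08 and -0.51 ± 0.12 with all libraries and -0.20 ± 0.06 and -0.19 ± 0.07 without the 2.

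COX4I1, the common form of subunit 4, and COX6B1, which lies where the enzyme forms dimers, passed the test at week 4 in neither fit. COX4I1 had log2 fold changes of -0.20 and 0.12 with all libraries and without week 0 replicates 1 and 4, and COX6B1 had -0.14 and 0.08. COX7C, another small membrane subunit, was at -0.12 ± 0.10 with all libraries (adjusted p = 0.31) and 0.16 ± 0.05 without the 2 libraries (adjusted p = 0.012). At week 1, COX4I1, COX5B, COX6A1 and COX6B1 were called higher without week 0 replicates 1 and 4, with log2 fold changes between 0.22 and 0.42, and none of the 4 was called with all libraries.

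**Figure D3:**
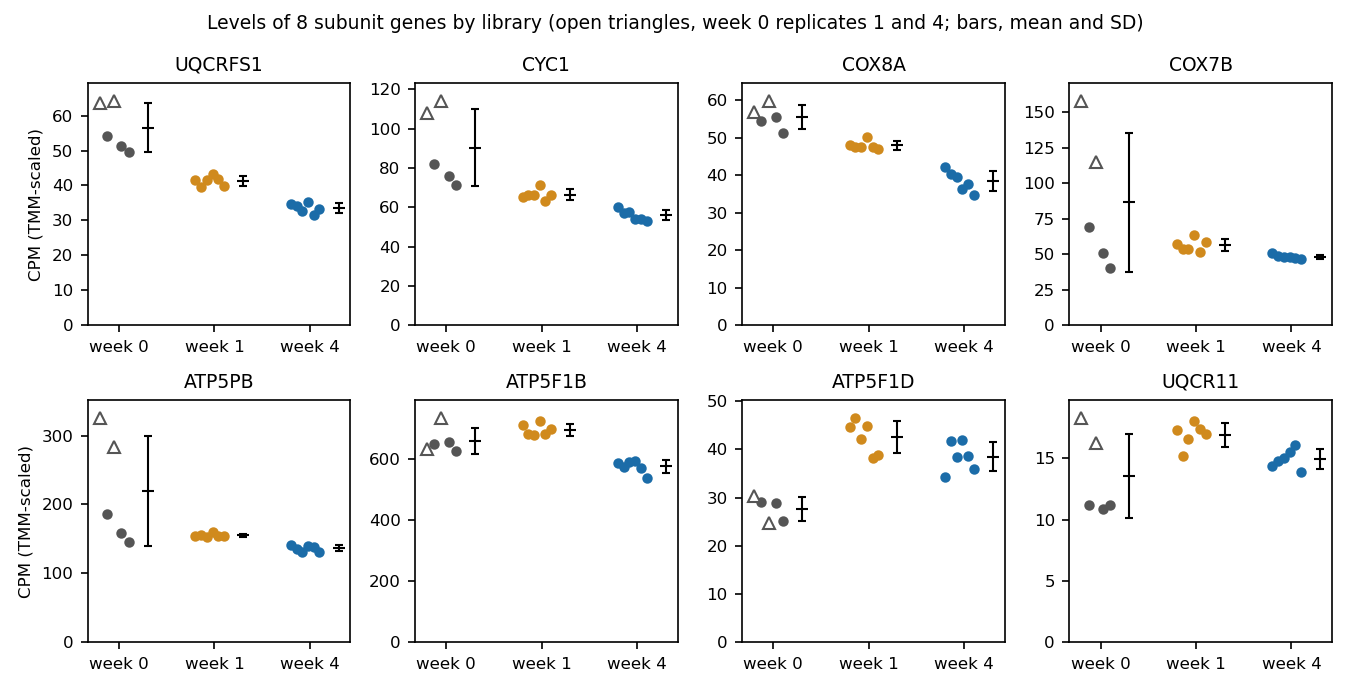
Level in CPM of 8 subunit genes in each library at weeks 0, 1 and 4 (each point a library, open triangles week 0 replicates 1 and 4, bars the mean and SD of the group beside the points; axes start at 0). UQCRFS1 and COX8A step down without overlap between weeks, COX7B and ATP5PB spread widely at week 0 only, and ATP5F1D is higher in all treated libraries than in any untreated one.

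Complex V was lower at week 4 in all but a single gene. Of its 12 genes, 11 were called lower and 1 higher with all libraries (median log2 fold change -0.49), against 33.7% and 33.9% of all tested genes. Without week 0 replicates 1 and 4, 9 were lower and 1 higher (median -0.21), against 31.8% and 33.1%. The 2 calls that were lost were those of ATP5PD and ATP5PO, both subunits of the peripheral stalk.

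The F1 head is made of the products of 5 genes. ATP5F1B, the catalytic beta subunit, had the highest level per gene length of the 35 genes in each group, 1262 ± 24.6 at week 4 and 1493 ± 27.95 at week 1, against 1496 ± 88.8 TPM at week 0. These values use the deposited gene length, which looks like all annotated exons joined and so understates genes with long alternative exons. In CPM, the week 4 libraries of ATP5F1B spanned 539.5 to 595 and the week 1 libraries 680.0 to 726, against 633, 649, 734, 657 and 628 in week 0 replicates 1, 3, 4, 5 and 6. Week 4 lay below all other libraries, and week 1 lay above every week 0 library but replicate 4. ATP5F1B had a log2 fold change of -0.20 ± 0.04 at week 4 against week 0 (adjusted p = 5.2e-04) and -0.27 ± 0.04 at week 4 against week 1 (adjusted p = 2.1e-05). In the fit that left out week 0 replicates 1 and 4 it was called higher at week 1 (0.11 ± 0.04, adjusted p = 0.012) and lower at week 4 (-0.17 ± 0.04, adjusted p = 3.0e-04), while with all libraries it did not pass at week 1 (0.08, adjusted p = 0.13).

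ATP5F1D, the delta subunit of the central stalk, went the other way from the other 11 genes of complex V at week 4. It had 34.3, 38.5 and 41.8 CPM at the lowest, median and highest at week 4 and 38.2, 43.3 and 46.4 CPM at week 1, against 30.4, 29.1, 24.8, 28.8 and 25.2 CPM in week 0 replicates 1, 3, 4, 5 and 6. All treated libraries lay above all untreated ones. The log2 fold change was 0.62 ± 0.07 at week 1 (adjusted p = 5.5e-08) and 0.48 ± 0.07 at week 4 (adjusted p = 2.7e-06), and 0.61 and 0.47 without week 0 replicates 1 and 4. No copy of ATP5F1D was found among the listed genes, and no exon of another gene overlaps it in GENCODE v29.

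The other F1 genes fell at week 4. ATP5F1A, the alpha subunit, had a log2 fold change of -0.39 ± 0.06 (adjusted p = 9.5e-06), ATP5F1C, the gamma subunit that forms the rotating shaft, -0.58 ± 0.12 (adjusted p = 1.4e-04), and ATP5F1E, the epsilon subunit, -0.64 ± 0.15 (adjusted p = 8.2e-04). Without week 0 replicates 1 and 4 the 3 values were -0.25, -0.25 and -0.19, all still called. ATP5F1A was lower at week 1 as well with all libraries (log2 fold change -0.22, adjusted p = 0.0042), but not without those 2 (-0.08, adjusted p = 0.059).

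The peripheral stalk keeps the F1 head from turning with the ring. ATP5PB, its b subunit, had the lowest fold change of complex V when all libraries were used, with 131, 137 and 141 CPM at the lowest, median and highest at week 4, against 325, 186, 284, 158 and 145 CPM in week 0 replicates 1, 3, 4, 5 and 6. The groups did not overlap. Its log2 fold change was -0.69 ± 0.14 (adjusted p = 1.8e-04), and -0.26 ± 0.05 without week 0 replicates 1 and 4 (adjusted p = 8.7e-05), where ATP5MC3 had the lowest. ATP5PF, the F6 coupling factor, had -0.53 ± 0.10 with all libraries and -0.25 ± 0.05 without those 2, while ATP5PD had -0.46 ± 0.12 and -0.12 ± 0.06 and ATP5PO, which holds the stalk to the head, -0.53 ± 0.18 and 0.01 ± 0.09.

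The c-ring is built from identical proteins made from 3 genes that differ in their cleaved leader peptides. ATP5MC1 had 40.5, 43.0 and 45.8 CPM at the lowest, median and highest at week 4, against 75.7, 53.3, 71.7, 50.2 and 47.3 CPM in week 0 replicates 1, 3, 4, 5 and 6. ATP5MC2 had 84.8, 91.3 and 101 CPM at week 4, against 131, 109, 130.1, 107 and 102 CPM in the same week 0 libraries. ATP5MC3 had 98.2, 108 and 114 CPM at week 4, against 196, 149.8, 192, 138 and 126 CPM in them. For each of the 3 genes week 4 lay below all of week 0.

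All 3 c-subunit genes were called lower at week 4 against week 0, and ATP5MC2 and ATP5MC3 were also called lower at week 1. The week 4 log2 fold changes against week 0 were -0.46 ± 0.10 for ATP5MC1, -0.33 ± 0.06 for ATP5MC2 and -0.58 ± 0.08 for ATP5MC3 (adjusted p = 1.9e-04, 8.1e-05 and 3.0e-06). These became -0.22 ± 0.06, -0.21 ± 0.05 and -0.37 ± 0.05 without week 0 replicates 1 and 4, all still called. At week 1 ATP5MC2 had already fallen (-0.37 ± 0.06, adjusted p = 2.2e-05) as had ATP5MC3 (-0.40 ± 0.08, adjusted p = 2.9e-04), whereas ATP5MC1 did not pass the test (-0.17 ± 0.10, adjusted p = 0.13), and without those libraries the calls were the same (-0.24, -0.18 and 0.08). At week 4 against week 1 ATP5MC1 was lower (-0.30 ± 0.09, adjusted p = 0.012) and ATP5MC2 did not pass (0.04 ± 0.06, adjusted p = 0.67). Whether the genes differ from each other in these changes was not tested.

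The comparison of week 4 with week 1 does not use the untreated libraries in its fold changes. In it, 16 of the 35 genes were called lower and 0 higher, where 18.6% and 21.8% of all tested genes were called in those directions, with a median log2 fold change of -0.24 (0.01 over all tested genes). DESeq2 and limma-voom called 0 higher as well, and by all 3 tools 0 were higher at an unadjusted p under 0.05. The libraries of the groups did not overlap for 24 genes, all lower at week 4, where 14.9% of all tested genes were apart in that direction and 15.3% in the other. The count was higher when the week 0 group was left out, which changes the estimate of spread, the filter and the scaling: from weeks 1 and 4 alone 30 genes were called lower and 0 higher, against 26.1% and 25.0% of all genes. Without week 0 replicates 1 and 4 the fit called 29 lower and 0 higher, against 22.8% and 24.9% of all genes. Leaving out week 4 replicate 6 gave 10 genes lower.

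By complex, 3 of 4 genes in complex II, 5 of 9 in III, 4 of 10 in IV and 4 of 12 in V were called lower at week 4 against week 1 with all libraries, and 3, 8, 8 and 10 without week 0 replicates 1 and 4. Over all tested genes the shares called lower were 18.6% and 22.8%. The lowest fold change was that of UQCR10, with 13.2 to 14.8 CPM at week 4, against 18.2 to 20.9 CPM at week 1 (log2 fold change -0.50 ± 0.11, adjusted p = 0.0012). It is among 9 genes called lower in each of the 30 other settings tried, as were SDHB, SDHC, UQCRC2, UQCRFS1, COX5A, COX8A, ATP5F1B and ATP5MC1, with log2 fold changes between -0.36 and -0.24. In the same comparison ribosomal protein genes took 4.02% ± 0.168 of the counts at week 4 and 3.67% ± 0.167 at week 1 (exact two-sided permutation test, adjusted p = 0.0325 over 6 tests). Genes of up to 1 kb took 1.25% ± 0.0501 at week 4 and 1.34% ± 0.0588 at week 1 (adjusted p = 0.0325). The part of these shares in the fold changes was not tested.

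**Figure D4:**
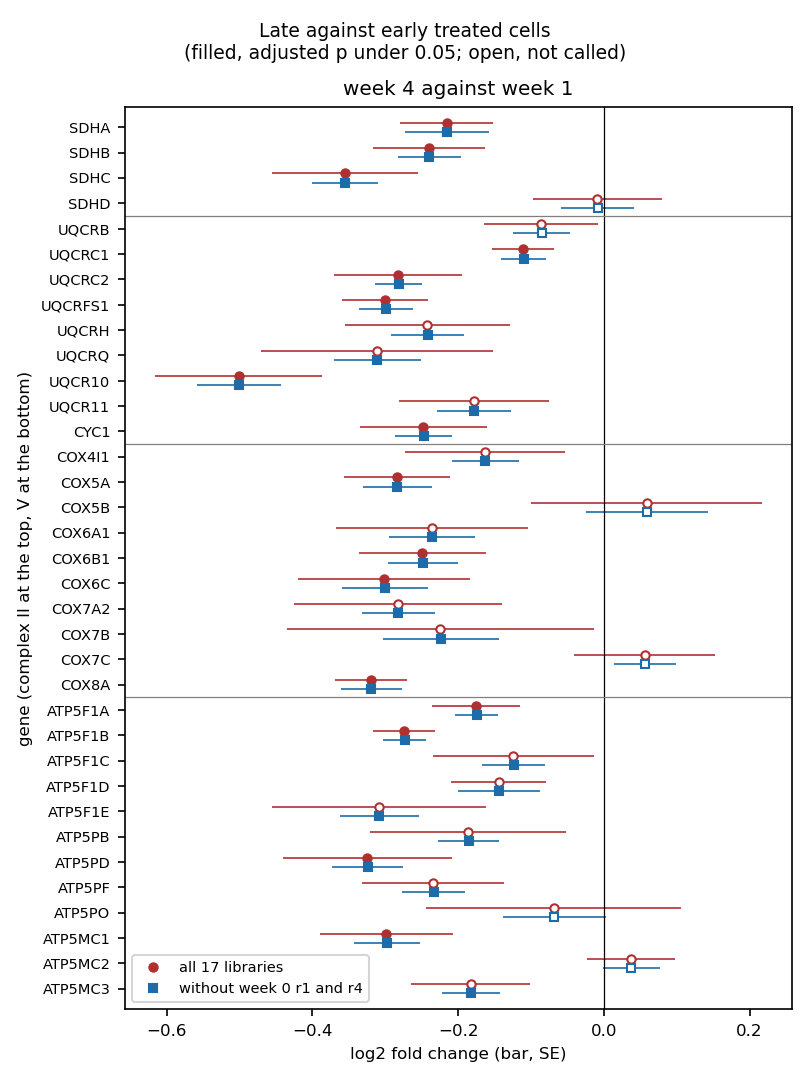
Log2 fold change of each subunit gene at week 4 against week 1, with all 17 libraries in the fit (red circles) and without week 0 replicates 1 and 4 (blue squares). Bars are standard errors and filled symbols passed an adjusted p under 0.05. The fold changes are nearly the same in both fits, with a median of -0.24, and the bars are shorter in the second, where 29 genes were called lower.

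Assembly factors build the complexes without staying in them, and with all libraries most of those for complexes II, IV and V were lower. At week 4 against week 0, 3 of 4 factors for complex II were called lower, 2 of 6 for complex III, 20 of 27 for complex IV and 3 of 4 for complex V, and a single one, for complex IV, was called higher, where 33.7% of all tested genes were lower and 33.9% higher. Without week 0 replicates 1 and 4 the lower calls were 2, 2, 14 and 3 for complexes II to V and the higher calls 1 for complex III and 2 for complex IV, where 31.8% and 33.1% of all genes were called. The share for complex III was thus near that of all genes. SDHAF3, which helps the iron-sulfur subunit of complex II mature, averaged 3.73 ± 0.589 CPM at week 4, against 9.27 ± 4.10 CPM at week 0 (log2 fold change -1.31 ± 0.19, adjusted p = 3.0e-06; -0.78 ± 0.12 without week 0 replicates 1 and 4). BCS1L, which inserts the Rieske protein into complex III, averaged 16.8 ± 0.759 CPM at week 4, against 25.6 ± 0.866 CPM at week 0 (-0.60 ± 0.05, adjusted p = 3.6e-10; -0.58 without those 2).

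Among the complex IV factors, COA7 and CMC2 had log2 fold changes of -0.68 ± 0.05 and -1.56 ± 0.14 at week 4 (adjusted p = 6.3e-11 and 1.2e-09). COA3, which steadies newly made subunit 1, had -1.04 ± 0.11 (adjusted p = 3.0e-08). When those 2 libraries were left out the values were -0.72 for COA7, -1.204 for CMC2 and -0.75 for COA3, all still called. COX19, a copper-handling protein of the intermembrane space, was the gene called higher, at 19.4 ± 0.816 CPM at week 4, against 15.3 ± 0.674 CPM at week 0 (0.34 ± 0.05, adjusted p = 6.7e-06). UQCC1, an assembly factor for cytochrome b, averaged 51.2 ± 1.85 CPM at week 1, against 35.7 ± 1.25 CPM at week 0 (0.52 ± 0.05, adjusted p = 5.0e-09). It did not pass the test at week 4 (-0.02, adjusted p = 0.68).

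Further subunits of complexes IV and V, counted apart from the 35, were mostly called lower at week 4 with all libraries. Of 8 such genes, including the inhibitor, 7 were called lower at week 4 and 0 higher by edgeR, DESeq2 or limma-voom (0 higher at an unadjusted p under 0.05 by each). Without week 0 replicates 1 and 4, 4 were lower, against 33.7% and 31.8% of all tested genes called lower in the 2 fits. The week 4 and week 0 libraries overlapped for each of the 8, where 23.6% of all tested genes lay apart and lower. At week 1 without week 0 replicates 1 and 4, 4 of the 8 were called higher, against 32.7% of all tested genes. ATP5IF1, which blocks ATP breakdown by complex V, averaged 31.7 ± 1.59 CPM at week 4, against 39.2 ± 6.88 CPM at week 0 (log2 fold change -0.31 ± 0.09, adjusted p = 0.0032; -0.16 ± 0.07 without week 0 replicates 1 and 4, adjusted p = 0.034).

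Of 7 tissue isoforms of complex IV, 3 could be tested. At week 4, 1 was called lower and 1 higher, against 33.7% and 33.9% of all tested genes. Without week 0 replicates 1 and 4 the lower call was lost and 1 was called higher, against 33.1% of all tested genes. The higher one was COX7A1, the heart and muscle form of subunit 7A, while the common COX7A2 fell. COX7A1 averaged 3.11 ± 0.404 CPM at week 4 and 4.90 ± 0.310 CPM at week 1, against 1.85 ± 0.797 CPM at week 0 (log2 fold changes 0.75 ± 0.19 and 1.405 ± 0.19, adjusted p = 0.0017 and 1.3e-06), and the values were 1.24 ± 0.16 and 1.90 ± 0.16 without week 0 replicates 1 and 4. COX4I2, the lung form of subunit 4, averaged 0.00744 CPM at week 4 and had no counts at week 0, too few to be tested. The 6 subunits of complexes III to V that mitochondrial DNA encodes, such as MT-CO1, had no counts in any library, as had all 37 mitochondrial genes listed, so they are not read here.

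The carriers that feed and empty the ATP synthase were mixed. SLC25A5, an exchanger of ADP and ATP common in dividing cells, averaged 92.7 ± 3.15 CPM at week 4, against 208 ± 56.1 CPM at week 0 (log2 fold change -1.17 ± 0.11, adjusted p = 2.7e-09). SLC25A4, its heart and muscle form, averaged 28.9 ± 0.944 CPM at week 4 and 38.04 ± 1.95 CPM at week 1, against 24.5 ± 2.98 CPM at week 0 (0.24 ± 0.06 and 0.63 ± 0.06, adjusted p = 0.0020 and 9.0e-09). CYCS, cytochrome c itself, averaged 83.2 ± 5.30 CPM at week 4, against 129 ± 32.5 CPM at week 0 (-0.63 ± 0.10, adjusted p = 1.1e-05). The week 4 values without week 0 replicates 1 and 4 were -0.86 for SLC25A5, 0.33 for SLC25A4 and -0.35 for CYCS, all still called.

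Ubiquinone synthesis genes had 7 of 11 members called lower at week 4 and 0 higher by edgeR, DESeq2 or limma-voom (0 higher at an unadjusted p under 0.05 by each). In the fit without week 0 replicates 1 and 4, 5 were lower, and 33.7% and 31.8% of all tested genes were called lower in the 2 fits. COQ2, which joins the ring of ubiquinone to its tail, averaged 4.98 ± 0.449 CPM at week 4, against 14.2 ± 0.874 CPM at week 0 (log2 fold change -1.51 ± 0.08, adjusted p = 6.5e-14), and COQ3, a methyltransferase of the pathway, 3.83 ± 0.250 CPM and 9.81 ± 1.43 CPM (-1.35 ± 0.09, adjusted p = 8.6e-12). Tricarboxylic acid cycle genes had 10 of 13 lower and 1 higher at week 4, against 33.7% and 33.9% of all tested genes. The higher one, OGDH, of the oxoglutarate dehydrogenase complex, lost its call without week 0 replicates 1 and 4 (log2 fold changes 0.15 and 0.06), where 10 were lower. FH, fumarase, which acts on the product of complex II, had a log2 fold change of -0.92 ± 0.05 (adjusted p = 5.9e-13) and CS, citrate synthase, -0.50 ± 0.05 (adjusted p = 2.6e-09). OGDH was higher at week 1 in both fits (0.58 ± 0.05, adjusted p = 4.9e-10, with all libraries).

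Most regulators of mitochondrial gene expression were lower. Of 15, 10 were called lower and 3 higher at week 4 with all libraries, and 12 and 2 without week 0 replicates 1 and 4, against 33.7% and 33.9%, and 31.8% and 33.1%, of all tested genes. NRF1, which activates many nuclear respiratory genes, averaged 9.18 ± 0.751 CPM at week 4 and 9.65 ± 0.404 CPM at week 1, against 18.7 ± 1.38 CPM at week 0 (log2 fold changes -1.03 ± 0.07 and -0.96 ± 0.07, adjusted p = 6.1e-12 and 1.8e-11). TFAM, which packages and transcribes mitochondrial DNA, averaged 15.2 ± 1.68 CPM at week 4, against 34.1 ± 4.27 CPM at week 0 (-1.16 ± 0.09, adjusted p = 5.3e-11). PPARGC1A, a coactivator of mitochondrial biogenesis, was low throughout, at 0.549 ± 0.173 CPM at week 4, against 1.15 ± 0.155 CPM at week 0 (-1.06 ± 0.27, adjusted p = 0.0017).

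GABPA, the DNA-binding part of an ETS factor, averaged 20.7 ± 0.537 CPM at week 4, against 24.2 ± 1.57 CPM at week 0 (log2 fold change -0.23 ± 0.06, adjusted p = 0.0011), but its exons overlap those of ATP5PF on the other strand. YY1, another factor found at respiratory promoters, was higher, at 88.0 ± 2.75 CPM at week 4, against 72.2 ± 6.20 CPM at week 0 (0.29 ± 0.05, adjusted p = 2.8e-05).

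**Figure D5:**
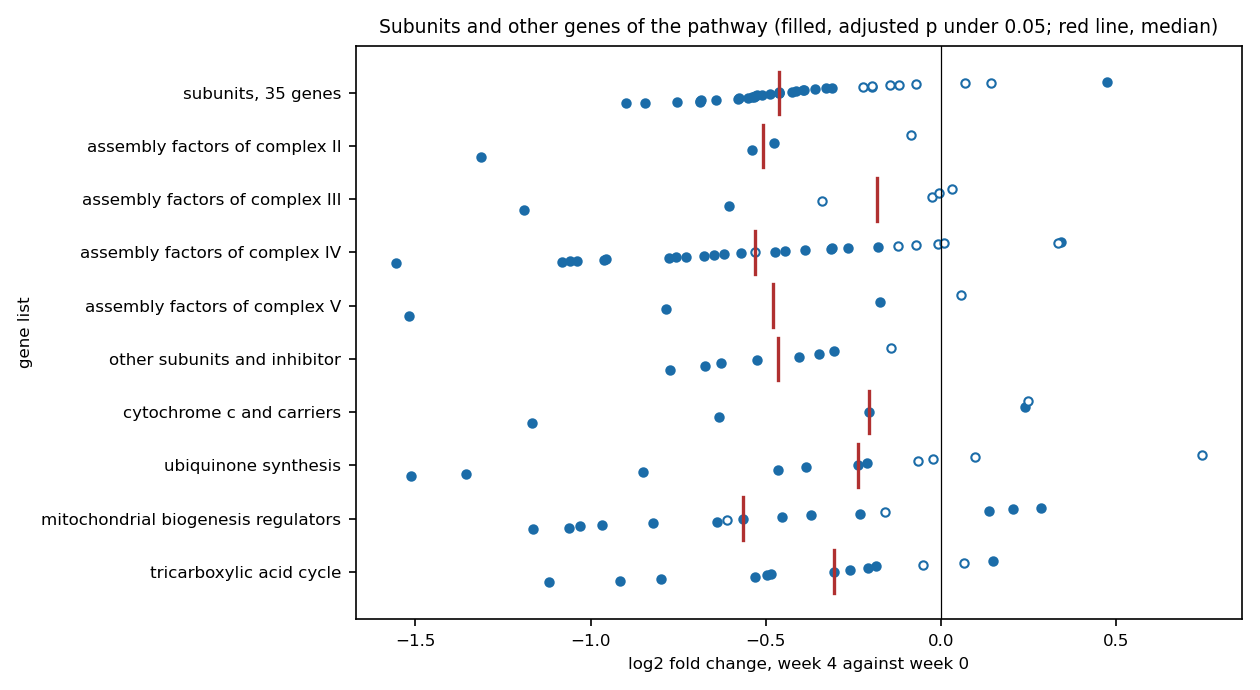
Log2 fold change at week 4 against week 0 of the 35 subunit genes and of 9 other lists of the pathway, with all libraries (each point a tested gene, filled where the adjusted p was under 0.05, red line the median of the list). The subunits are clustered around -0.46, while assembly factors and regulators reach below -1.

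RefSeq gave a promoter window, from 250 bases before to 50 after the start, for 28 of the 35 genes. The GCGCNNGCGC motif was in 8 of the 28 (28.6%), against 17.2% of tested genes and 9.98% of all genes with a window. CCGGAAG was in 13 (46.4%, against 20.3% and 12.2%), and AAGATGG, of the type bound by YY1, in 7 (25.0%, against 8.73% and 7.11%). Each motif was read on both strands, and a match is a run of letters in the window and not a shown binding site.

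In the window of SDHA, 4 copies of GCGCNNGCGC, each 49 bases after the last, are seen as 4 runs of capitals in the sequence above. Of the 8 genes with that motif, 7 were called lower at week 4, with a median log2 fold change of -0.50, and of the 20 without it 15 were (median -0.46). Of the 13 genes with CCGGAAG, 8 were called lower (median -0.39), and of the 15 without it 14 (median -0.49). Of the 7 genes with AAGATGG, 6 were called lower (median -0.53), and of the 21 without it 16 (median -0.46). Over all tested genes 33.7% were called lower. Without week 0 replicates 1 and 4, the medians were -0.25 with GCGCNNGCGC and -0.20 without it, and -0.12 with CCGGAAG and -0.22 without it. For AAGATGG they were -0.25 with it and -0.19 without it. Whether a motif bears on a change was not tested.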

How the data were processed

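RNA-seq libraries of IMR-90 cells were made with an Illumina RNA kit from column-purified, DNase-treated RNA, per the labels' protocols. The authors deposited raw counts per gene symbol for each library, and 4 of the deposited files also hold a gene length in bases (week 0 replicates 5 and 6, week 1 replicates 1 and 2). Per the submitters' processing notes the tools were HISAT2 2.0.5.2 and featureCounts 1.4.6 and the build mm10, a mouse genome. Since the gene symbols are human, the true build is unknown, and none of the counts is tied to coordinates. How strand and reads with several matches were handled is not given in the sources used here. Promoters are from RefSeq on GRCh38.p14 and overlaps from GENCODE v29.

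Counts with no gene name (0.221% to 0.289% of each library) were left out. The test was edgeR 4.0.16 under R 4.3.3 (filterByExpr, TMM, quasi-likelihood, a mean per group, all 17 libraries), and a gene was called at an adjusted p under 0.05 over 16891 genes. The standard error was the log2 fold change over the square root of F. The biological coefficient of variation was 11.7%. Levels are CPM with TMM factors, and those per length are TPM from the deposited lengths. Within groups, every one of 40 pairs of libraries differed by more than counting noise (chi-square per gene at least 7.62). The fit was tested on simulated data.

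Values per library are given for the genes with the lowest and highest week 4 fold change of each complex, for UQCRFS1 and the 3 c-subunit genes, and for SDHD, SDHA, CYC1, COX7B, COX8A and ATP5F1B, chosen after their values were seen. From other lists up to 3 rising and 3 falling genes with the smallest adjusted p were eligible, beside PPARGC1A, NRF1, GABPA, TFAM, COX7A1, COX4I2 and ATP5IF1; YY1 and UQCC1 fall under this too. The genes, lists and tests were chosen with earlier results of these data known. Other settings tried were DESeq2 1.42.0, voom in limma 3.58.1, scaling by RLE or the upper quartile, no filter, a stricter filter (5 CPM in 5 libraries), only the groups compared, the replicate number as a block, a term for the files with a length column, those files left out, week 0 replicates 1 and 4 left out, a spline correction for gene length, both, and each library left out.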

Additional observations from a re-analysis of the deposited data

Results flagged for a closer look

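Over the 35 genes in 3 groups, 105 sets of libraries were checked for a single library far from the rest, and 5 had one, where chance gives about 1 in 20. At week 4, replicate 6 was low for UQCRQ, at 35.2 CPM where the others spanned 39.3 to 39.8 CPM (gap over range 0.902), and for COX4I1, at 187 CPM where the others spanned 212 to 218 CPM (0.821). SDHA at week 4 had replicate 3 at 9.09 CPM and the others between 7.96 and 8.31 CPM (0.690). COX8A at week 1 had replicate 4 at 50.2 CPM and the others between 47.0 and 48.1 CPM (0.661). ATP5F1B at week 0 had replicate 4 at 734 CPM and the others between 628 and 657 CPM (0.723). The wide week 0 spread of the other genes does not show in this count, which looks only for a single library far from the rest.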

How the results depend on the processing

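At week 4 against week 0, 22 genes stayed lower and ATP5F1D higher in all 30 alternatives. At week 1 against week 0 this held for 10 lower genes and ATP5F1D, and at week 4 against week 1 for 9 lower genes. At week 1, without the files that hold a length column 28 genes were lower and 1 higher. Without week 0 replicates 1 and 4, 12 were higher with a median of 0.077, with the length correction 5 were higher, and with both 11 were higher with a median of 0.075. At week 4 against week 0 the higher count was 5 without those replicates, 2 with the length correction and 7 with both, and the median -0.19 without them and -0.17 with both. At week 4 against week 1 the lower count was 30 from the groups compared alone, 26 with a file class term, 29 without week 0 replicates 1 and 4 and 29 with both. Leaving out 1 library at a time gave 13 to 24 lower and 2 to 3 higher at week 1, 25 to 30 lower and 1 to 3 higher at week 4 (3 without week 0 replicate 1), and 10 to 23 lower and 0 higher at week 4 against week 1. The medians ran from -0.26 to -0.13, -0.54 to -0.36 and -0.25 to -0.21.

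Single genes that changed sign at week 1 were, without week 0 replicates 1 and 4 and then with the length correction too, SDHC (0.21, 0.21), COX4I1 (0.29, 0.30), COX6A1 (0.22, 0.23), COX7B (0.073, 0.074), ATP5PD (0.20, 0.20) and ATP5PO (0.073, 0.075). The causes were not tested. COX8A was 0.00333 with the length correction alone and COX5B -0.35 without the files that hold a length column. At week 4 against week 0, UQCRB was 0.13, COX7C 0.16 and ATP5PO 0.00511 without week 0 replicates 1 and 4, and with both UQCRH was 0.15, COX4I1 0.14, COX6A1 0.035, COX6B1 0.13, COX7C 0.18 and ATP5PO 0.023. Which week 0 libraries better represent untreated cells was not tested.

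Same-numbered libraries of different weeks had correlations of deviation from -0.08 to 0.14, and not every library correlated best with its own number. The labels do not say whether same-numbered libraries are related, and the main fit did not pair them. With the replicate number as a block, 16 genes were lower and 2 higher at week 1, 27 and 1 at week 4, and 19 and 0 at week 4 against week 1, and over all genes 5580 and 5516, 5544 and 5636, and 3057 and 3612 were called, against 5740 and 5565, 5692 and 5722, and 3150 and 3685 without the block. Of the 35 genes, 34 exceeded 10 CPM in all libraries.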
